A study of Mus musculus with 6 samples.

Results

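CD8 T cells of the mouse peritoneal cavity were picked out by their transcripts from a droplet single-cell RNA-seq data set of resident peritoneal cells. Members were chosen by measured UMI counts (a UMI marks 1 captured RNA molecule). A member had at least 500 genes, at most 10% mitochondrial UMIs, at least 2 UMIs of *Cd3d*, *Cd3e* and *Cd3g* together, at most 2 of *Cd79a* and *Cd79b*, none of *Csf1r* and *Adgre1*, at most 2 of *Klrd1*, *Nkg7*, *Gzma* and *Klrk1*, at least 1 of *Cd8a* and *Cd8b1*, and none of *Cd4*. The rule found 116 cells among 7665 kept cells (1.51%, 95% exact binomial interval 1.25–1.81%) out of 7760 barcodes. CD4 T cells, with at least 1 *Cd4* UMI, none of *Cd8a* and *Cd8b1* and the same other limits, numbered 113.

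The study compared macrophages that take up apoptotic cells (ACs) in the presence and absence of the receptor MerTK. The 6 libraries are MerTK +/+ and MerTK -/- mice of the C57BL/6 strain (C57BL/6J in the study's methods), each as a control with a media change and after 2 h or 6 h with ACs, which were Jurkat cells (a human T cell line) killed by UV light. The MerTK -/- animals are the MerKD line, whose defect is not limited to macrophages, all mice were young adults, and each library pools the cells of 3 mice. Lavage cells were plated for 1 h and washed free of non-adherent cells, and the samples are labelled as macrophages. By their defining genes 1897 kept cells were macrophages (at least 2 *Csf1r* and *Adgre1* UMIs, no CD3 or B cell gene; median 5102 UMIs) and 3024 were B cells (at least 3 *Cd79a* and *Cd79b* UMIs, no CD3 or macrophage gene; median 5133.5 UMIs), and the T cells are those that remained after the wash. No label ties the numbers 1 to 6 at the ends of the barcodes to a sample, so no comparison of genotypes or times was made, and values are given over the pool and by library number. Over the pool there is no replicate error and no test: the 95% intervals, exact Poisson for UMIs scaled to a total of 1e6 per population (CPM), exact conditional for ratios of CPM and exact binomial for shares, cover counting error only.

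CD8 T cells read peptides on MHC class I, the display system of nearly all nucleated cells, through an αβ T cell receptor (TCR) and the CD8 coreceptor, a dimer of the chains encoded by *Cd8a* and *Cd8b1*. CD4 T cells read MHC class II instead. Naive T cells recirculate between blood and lymph nodes guided by the chemokine receptor *Ccr7* and are held in that state by TCF-1 (*Tcf7*) and *Lef1*. Memory cells and cytotoxic cells lose part of this program and store or make effector proteins such as the chemokine CCL5.

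Depth ran from 4234786 to 10287079 UMIs per library. Members had a median of 2919.5 UMIs (1125–6801) and 1081.5 genes per cell, and CD4 T cells had a median of 2754 UMIs (1331–14829), so both populations were read to nearly the same depth. Together the members held 358730 UMIs and the CD4 T cells 358337. A total of 28 barcode sequences occurred in more than 1 library, and 2 members carried such a barcode. Scrublet, a doublet caller, marked 47 of the 7760 barcodes and none of the members. The 2 GFP features of the table, a marker of the Jurkat line, had 0 UMIs in members.

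Members were found in every library, but unevenly. Libraries 1 to 6 held 21, 23, 46, 12, 7 and 7 members and 19, 28, 47, 10, 7 and 2 CD4 T cells. Library 3 alone held 46 of the 116 members. The share of members among kept cells ran from 0.523% in library 6 (0.21–1.07%) to 4.30% in library 3 (3.16–5.69%), intervals that do not overlap. T cells as a whole, that is all cells within the CD3, B cell, macrophage and NK limits, moved alongside, from 1.64% of kept cells in library 6 to 14.6% in library 3. Among the 455 T cells the members were 25.5% (21.6–29.8%), and by library this share lay between 17.5% and 31.8%, with intervals that all overlap. The other T cells were the 113 CD4 T cells and 226 cells with no UMI of either coreceptor. A count of 0 in a cell does not show absence, as 42 of the 116 members had only 1 UMI of the CD8 chains. The 226 cells had a median of 2506.5 UMIs. No T cell had UMIs of both.

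**Figure D1:**
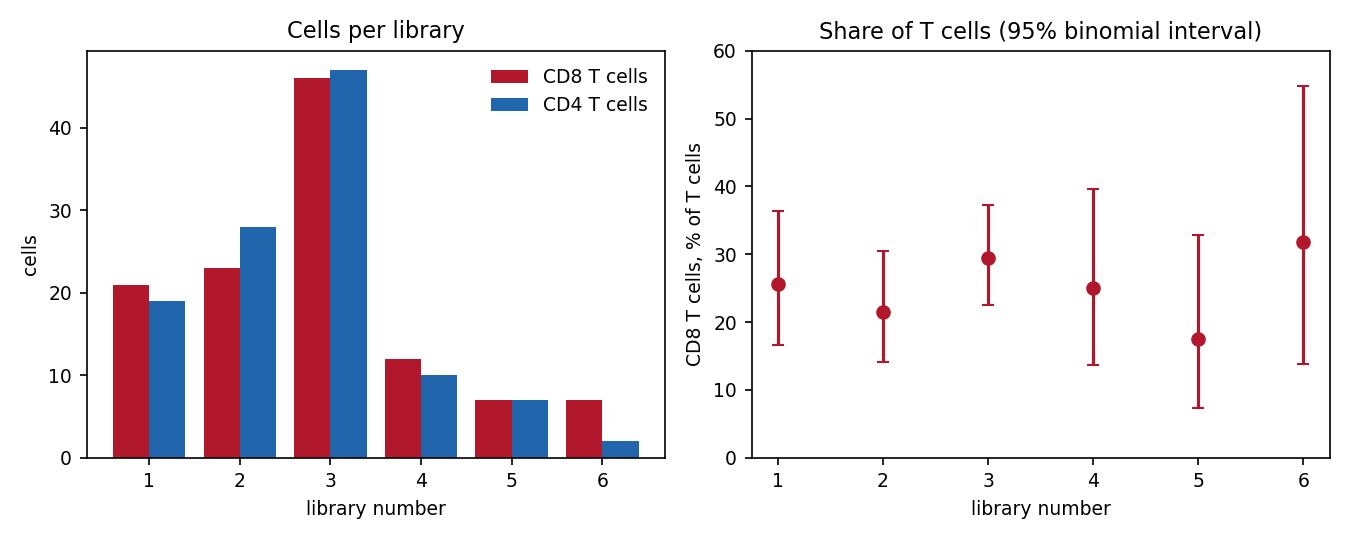
Left, CD8 T cells (red bars) and CD4 T cells (blue bars) in each of the 6 libraries, by library number. Right, CD8 T cells as a percentage of all T cells in each library with 95% exact binomial intervals; library 3 holds 46 of the 116 CD8 T cells, while the share of T cells lies between 17.5% and 31.8% with overlapping intervals.

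The 2 coreceptor chains were used for the choice and are described without a test. *Cd8b1* (GRCm38 chr6:71322788-71337494, plus strand) had 214 UMIs in 100 of the 116 members, and its neighbour *Cd8a* (chr6:71373427-71379173, plus strand) had 87 UMIs in 60 members. By library, *Cd8b1* ran from 253 to 828 CPM with a median of 569 CPM, and *Cd8a* from 152 to 453 CPM with a median of 274 CPM. Both chains were seen in 44 members, *Cd8b1* alone in 56 and *Cd8a* alone in 16. In B cells, which should lack both, *Cd8b1* was seen in 0.165% of cells and *Cd8a* had 0 UMIs.

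At the edges of the rule, 42 members had a single UMI of the CD8 chains, 27 had 2 and 47 had 3 or more, up to 17 in 1 cell. A further 18 members had exactly 2 CD3 UMIs, and 10 cells outside had exactly 1 CD3 UMI and met all else. For the NK genes, 59 members had no UMI, 34 had 1 and 23 had 2, while 8 cells outside had exactly 3. In all, 24 cells met every limit but that on the NK genes, against 2 CD4 T cells. The rule thus leaves out the CD8 T cells richest in cytotoxic transcripts.

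All 5 markers set for CD8 T cells (*Cd8a*, *Cd8b1*, *Lef1*, *Tcf7* and *Dapl1*) were present in at least 10% of members, as were 10 of 11 general T cell markers. Of these, *Cd8a*, *Cd8b1*, *Cd3d*, *Cd3e* and *Cd3g* were part of the rule. In CD4 T cells, where the rule sets *Cd8a* and *Cd8b1* to 0, the other 3 CD8 markers and all 11 general ones also reached 10%. Of the defining CD4 T cell genes, *Cd40lg* (CD40 ligand, the helper signal to B cells) and *Zbtb7b* (ThPOK, the factor that sets the CD4 lineage) had 0 UMIs in members against 8 and 7 in CD4 T cells. A count of 0 in the pooled members allows up to 8.36 CPM (3 UMIs). Of these CD4 genes only *Cd4* itself was part of the rule. *Foxp3*, the factor of regulatory T cells, had 0 UMIs in members and 5 in CD4 T cells. It was the only 1 of 4 regulatory T cell markers at 0 in members. The 4 together had 28 UMIs in members (23.6–253 CPM by library) and 60 in CD4 T cells (42.3–628 CPM). Markers of dendritic cells, neutrophils and erythroid cells were at 0 throughout the members, and 1 mast cell UMI was found. Of 8 macrophage markers, *Csf1r* and *Adgre1* were at 0 by the rule and *C1qa* was at 0 too. The summed level ran from 0 to 211 CPM by library. Of 8 B cell markers, *Cd79a* and *Cd79b* were limited by the rule, and *Ms4a1* and *Cd22* were at 0. The summed level ran from 0 to 1875 CPM by library in members. In CD4 T cells it ran from 212 to 11148 CPM, the highest in library 6 with its 2 CD4 T cells.

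Levels were set against those of CD4 T cells for the 2183 genes that averaged 50 CPM or more across the 2 populations, without the genes of the rule. A gene was counted where its CPM differed by 2-fold or more. In members 25 genes (1.15%) were higher and 98 (4.49%) were lower. All 25 and 94 of the 98 had an interval that excluded equality. These genes were picked by the same counts, and the UMIs of 1 cell are not independent. The intervals therefore give no support of their own. Without library 2 there were 46 higher and 95 lower genes, and without library 3 there were 65 and 166. With no limit on NK genes there were 28 and 66. The median log2 ratio over all 2183 genes was -0.10. When mitochondrial, ribosomal protein and receptor genes were left out of the total, that median was -0.009, and higher genes made up 43.4% of the genes past 2-fold in place of 20.3%, over 3927 genes at the minimum. Of the 25 higher genes 17 were higher in at least 5 of 6 libraries and 6 in all 6, and of the 98 lower genes 69 were lower in at least 5 and 22 in all 6.

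**Figure D2:**
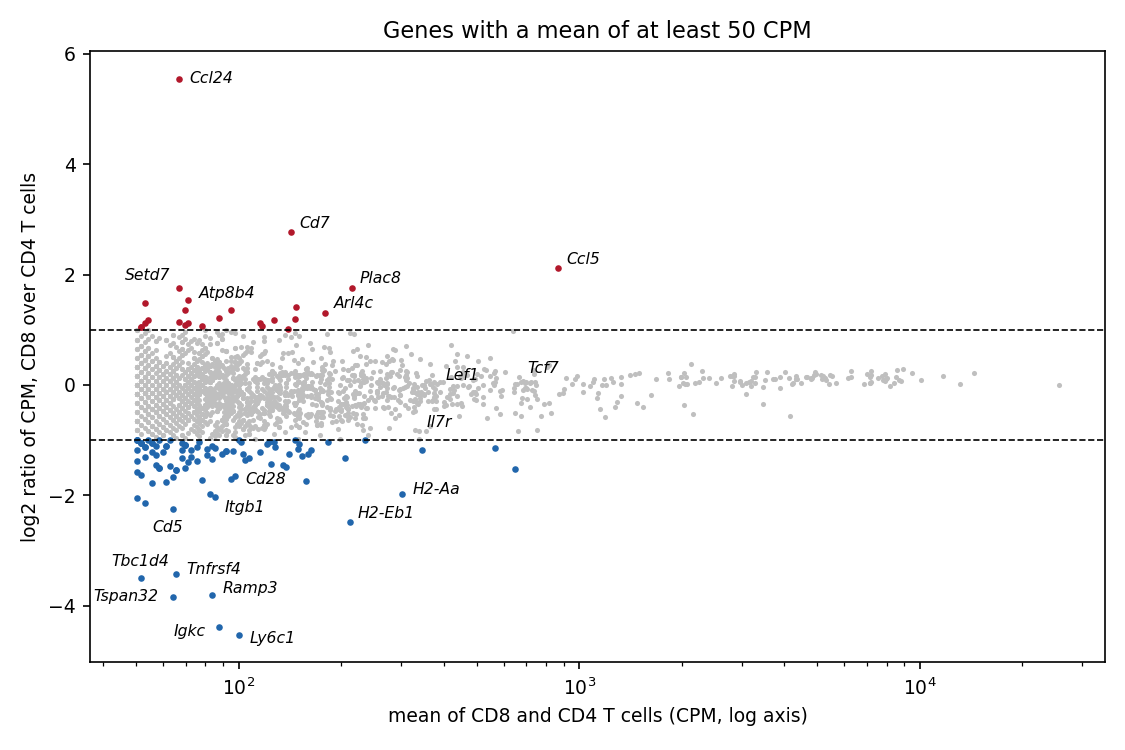
Log2 ratio of CPM in CD8 over CD4 T cells (y axis) against the mean CPM of both populations (x axis, log scale) for the 2183 genes at or above 50 CPM, each a point. Red points (25) are at least 2-fold higher and blue points (98) at least 2-fold lower in CD8 T cells, dashed lines mark 2-fold, and *Lef1* and *Tcf7* lie near 0 while *Cd7* and *Ccl5* lie above 2.

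*Cd7*, *Ccl5* and *Plac8* led the genes that were higher in members. *Cd7* (chr11:121036747-121039418, minus strand), a surface glycoprotein of T and NK cells, had 20, 17, 40, 9, 1 and 2 UMIs in the members of libraries 1 to 6 and 0, 3, 7, 2, 1 and 0 in the CD4 T cells. In CPM the members were higher in all 6 libraries. Over the pool *Cd7* was at 248 CPM (199–305) in members and 36.3 CPM (19.3–62.0) in CD4 T cells, a log2 ratio of 2.77 (1.93–3.74). It was seen in 47 of 116 members (40.5%), 11 of 113 CD4 T cells (9.73%) and 0.0331% of B cells, and in 26.5% and 7.21% of members and CD4 T cells thinned to 1500 UMIs each.

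*Ccl5* (chr11:83525778-83530518, minus strand) encodes a chemokine that memory and cytotoxic T cells keep ready for release. Its level in members was lowest at 707 CPM in library 4 and highest at 2527 CPM in library 5, with a median of 1577 CPM, and in CD4 T cells it ran from 0 to 973 CPM with a median of 219 CPM. Members were higher in 5 of 6 libraries. The exception was library 4. Over the pool *Ccl5* was at 1405 CPM (1285–1533) in members and 324 CPM (267–388) in CD4 T cells, a log2 ratio of 2.12 (1.82–2.42). It was seen in 26.7% and 12.4% of cells. Only 26 members and 6 CD4 T cells had at least 3 *Ccl5* UMIs, so these intervals are too narrow. The ratio was 1.56 with at least 1000 genes per cell, 2.45 without library 3, 2.43 without library 4 and 2.90 with no limit on NK genes. Of 19 alternatives these 4 lay outside the interval.

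*Plac8*, a small cysteine-rich protein of lymphoid and myeloid cells, ran from 0 to 405 CPM by library in members with a median of 317 CPM, and from 0 to 239 CPM in CD4 T cells with a median of 45.8 CPM. Only library 5, with 7 members, had none. *Plac8* was seen in 45.7% of members (36.4–55.2%) and 7.08% of CD4 T cells (3.11–13.5%), and the log2 ratio of levels was 1.76 (1.21–2.35). B cells also carried it, in 70.4% of cells. The summed B cell markers were at 424 CPM in members and 1312 CPM in CD4 T cells, where 6 cells held 98.3% of the *Cd74* UMIs. The ratio of *Plac8* was 1.61 with no *Cd79a* or *Cd79b* UMI allowed.

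Of the other genes named as higher, *Setd7*, a lysine methyltransferase, had a log2 ratio of 1.75 (0.75–2.87) with 37 against 11 UMIs, and *Atp8b4*, a phospholipid flippase, one of 1.55 (0.61–2.58). The kinase gene *Pim2* was higher in all 6 libraries, at 137 against 53.0 CPM. So were *Bcl3*, a nuclear IκB protein, at 176 against 78.1 CPM, and *Sipa1l1*, a Rap GTPase activating protein, at 203 against 89.3 CPM. *Arl4c*, a small GTPase, stood at 256 CPM against 103 CPM. *Ppm1h*, a protein phosphatase, *Soat1*, a cholesterol esterifying enzyme, and the pseudogene *Rpl35a-ps3*, which shares sequence with its parent gene so that its reads are uncertain, had log2 ratios from 1.13 to 1.21. Without library 1 *Ppm1h* was at 0.95, without library 4 *Rpl35a-ps3* was at 0.97, and without library 3 *Atp8b4* was at 2.48. *Pim2* (0.76) and *Bcl3* (0.79) were under 2-fold after thinning, *Soat1* (0.79) with no NK gene UMI allowed, and *Sipa1l1* (0.96) with no B cell gene UMI allowed. The largest ratio of all, that of the macrophage chemokine *Ccl24* (log2 5.55), rested on 1 member of library 1 with 44 of the 47 UMIs and was higher in only 2 libraries. Macrophages carried *Ccl24* in 90.1% of cells, and it is named here after its values were seen.

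**Figure D3:**
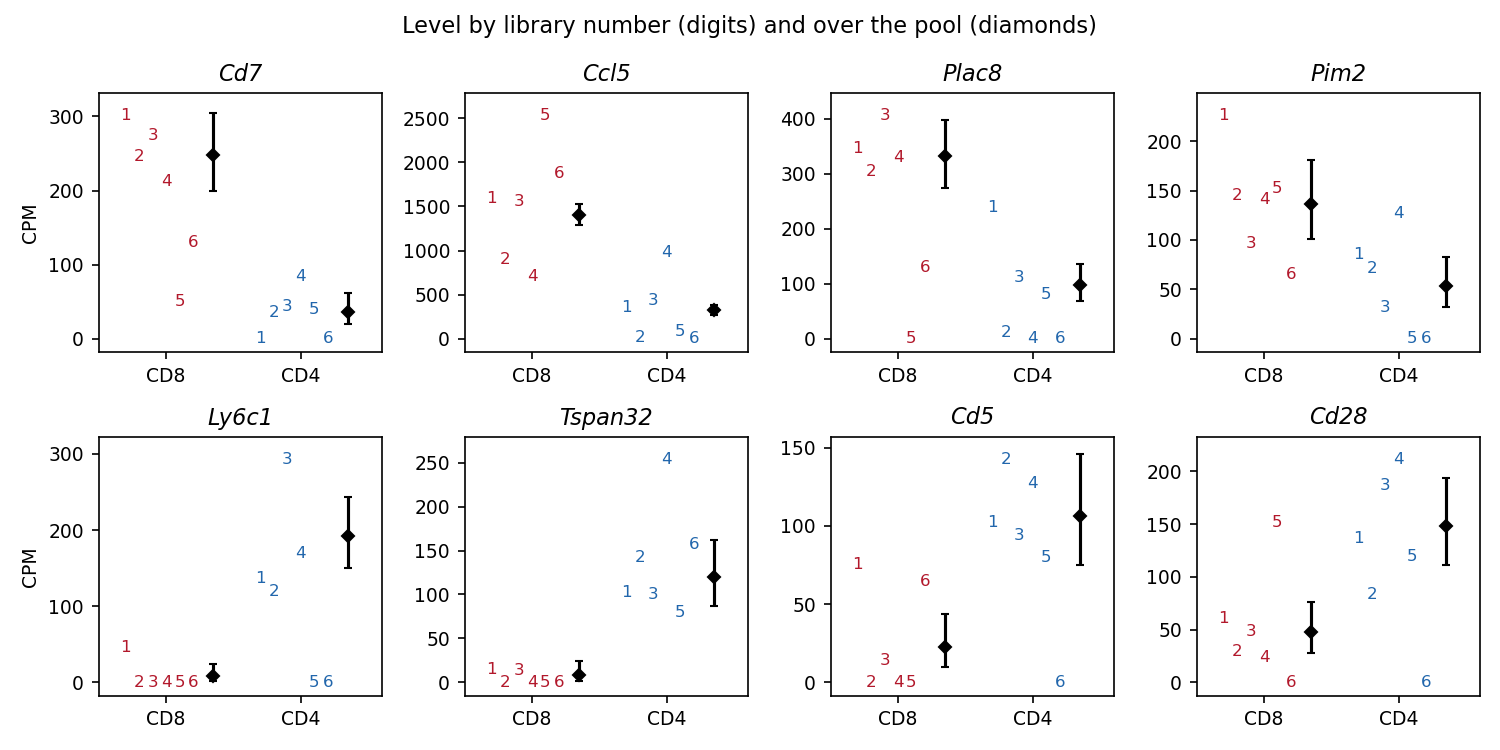
CPM of 8 genes in CD8 T cells (red digits) and CD4 T cells (blue digits), where each digit is the number of a library, with the level over the pool and its 95% exact Poisson interval (black diamonds). *Cd7* and *Pim2* are higher in CD8 T cells in all 6 libraries, *Tspan32* is lower in all 6, and *Ly6c1* is found in the CD8 T cells of library 1 only.

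Among the genes lower in members, *Ly6c1* had the lowest ratio. Ly6C proteins are small lipid-anchored surface antigens of monocytes and T cell subsets. *Ly6c1* (chr15:75044018-75048830, minus strand) had 3 UMIs in 1 member, in library 1, and 69 UMIs in 27 of 113 CD4 T cells (23.9%, 16.4–32.8%), in libraries 1 to 4. The log2 ratio was -4.53 (-6.84 to -2.92), and as libraries 5 and 6 had no UMI in either population it was lower in 4 of 6 libraries. Without library 3 the ratio was -2.98. *Ly6c2* (chr15:75108158-75111970, minus strand) had 17 UMIs in 11 members and 10 UMIs in 7 CD4 T cells, with a log2 ratio of 0.76 whose interval (-0.45 to 2.05) includes 0.

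The start of the coding sequences is shown because the 2 genes are nearly the same, and a read within a stretch they share fits both. Sequences are from the GENCODE vM21 transcripts of GRCm38, 5′ to 3′ from the start codon, and capitals mark bases of *Ly6c2* that differ from *Ly6c1*.
Ly6c1: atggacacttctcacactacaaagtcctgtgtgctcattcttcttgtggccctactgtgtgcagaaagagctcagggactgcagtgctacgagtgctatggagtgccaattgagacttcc
Ly6c2: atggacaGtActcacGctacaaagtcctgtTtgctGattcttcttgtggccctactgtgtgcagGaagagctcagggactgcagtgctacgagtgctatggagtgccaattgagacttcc
The coding sequences of 393 bases differ at 9 positions (97.7% identity), 6 of them within these 120 bases, and share an unbroken run of 188 bases. How reads from that run were divided was not tested, so the levels of *Ly6c1* and *Ly6c2* are uncertain.

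*Tspan32*, *Ramp3*, *Tbc1d4* and *Tnfrsf4* followed with log2 ratios from -3.84 to -3.43. *Tspan32*, a tetraspanin that dampens T cell proliferation, had 1, 0, 2, 0, 0 and 0 UMIs in members of libraries 1 to 6 and 6, 12, 16, 6, 2 and 1 in CD4 T cells. It was lower in all 6 libraries, with a log2 ratio of -3.84 (-6.18 to -2.20), and was seen in 2.59% of members, 30.1% of CD4 T cells and 27.0% of B cells. *Ramp3*, a partner of calcitonin-family receptors, was at 11.2 CPM (3.04–28.5) in members and 156 CPM (118–203) in CD4 T cells. *Tbc1d4*, a Rab GTPase activating protein of glucose transporter traffic, was at 8.36 against 94.9 CPM. *Tnfrsf4*, which encodes the costimulatory receptor OX40, was at 11.2 against 120 CPM. The last 3 genes were lower in 5 of 6 libraries. Without library 3 the ratio was -4.86 for *Tspan32*, -4.46 for *Ramp3*, -2.77 for *Tbc1d4* and -5.24 for *Tnfrsf4*, and without library 1 it was -4.66 for *Tbc1d4*.

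*Igkc*, *H2-Eb1* and *H2-Aa*, genes of B cells and antigen-presenting cells, also met the rule, with 0 against 63, 23 against 129 and 44 against 173 UMIs, the ratio of *Igkc* being -4.39 with the count of 0 set to the floor of 3 UMIs over the pool. They came from few cells: *H2-Aa* was seen in 6 members and 7 CD4 T cells, with up to 17 and 51 UMIs in a cell. The cells with 5 or more UMIs of *Cd74*, the invariant chain of MHC class II, were 3 members and 6 CD4 T cells. Without these 9 cells *H2-Aa* had 3 and 1 UMIs, *H2-Eb1* 2 and 0, and *Igkc* 0 and 3, while *Tspan32* had 3 and 42 and *Ly6c1* 3 and 69. *Capg*, an actin capping protein, went from 12 against 47 to 4 against 12 UMIs, and its log2 ratio of -1.97 was -0.67 with no *Cd79a* or *Cd79b* UMI allowed and -0.83 after thinning. *Ass1*, an enzyme of arginine synthesis, was at 27.9 against 94.9 CPM, and *Isca1*, a factor of iron-sulphur cluster assembly, at 19.5 against 80.9 CPM. Both were lower in 5 of 6 libraries, and the log2 ratio of *Isca1* was -2.05, or -2.66 without library 1.

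Genes of the TCR complex and its signalling were read in 27 genes, of which 21 were at the minimum. None was past 2-fold higher and 4 were lower, beside 1.15% and 4.49% over all genes, and the median log2 ratio was 0.03 beside -0.10. The 4 lower genes were *Cd5* (-2.25, -3.56 to -1.13) and *Cd6* (-1.55, -2.63 to -0.57), receptors that restrain TCR signals, the costimulatory receptor *Cd28* (-1.64, -2.52 to -0.83), and *Ubash3a* (-1.04, -1.94 to -0.19), a phosphatase-family inhibitor of TCR signalling. Without library 1 the ratio of *Cd5* was -3.38 and that of *Ubash3a* -0.83, without library 2 that of *Ubash3a* was -0.84, and with no limit on NK genes that of *Cd6* was -0.90. *Cd28* was seen in 12.9% of members and 34.5% of CD4 T cells, and *Cd5* in 6.90% and 25.7%. The adhesion receptor *Cd2* was just short of 2-fold, at -0.97, and just past it without library 3 (-1.06). The kinase *Lck*, which binds to the coreceptors, was higher in all 6 libraries, at 385 CPM (323–454) against 234 CPM (187–290), a log2 ratio of 0.71 (0.31–1.12), and *Txk*, a Tec-family kinase, had a ratio of 0.92 (0.38–1.47). The ratios of the receptor constant genes *Trac* (0.21, -0.25 to 0.67) and *Trbc2* (0.03, -0.26 to 0.32) had intervals that include 0.

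Of 28 naive, quiescence and homing genes 24 were at the minimum. None was past 2-fold higher and only *Ly6c1*, described above, was lower, near the shares over all genes (1.15% and 4.49%), and the median log2 ratio was 0.004 beside -0.10. Without library 3 *Dapl1* (1.42) and *Actn1* were past 2-fold higher, and without library 2 *Actn1* was (1.14). *Tcf7* was at 697 CPM (613–789) in members and 631 CPM (551–718) in CD4 T cells, and *Lef1* at 385 CPM (323–454) and 382 CPM (321–452). The ratio of *Tcf7* was 0.14 (-0.12 to 0.41), and by library *Tcf7* in members ran from 535 to 841 CPM. Members with at least 1 UMI of *Lef1*, *Tcf7* or *Dapl1* were 109 of 116 (94.0%, 88.0–97.5%), from 89.1% in library 3 to 100% in libraries 1, 5 and 6. The same share was 96 of 113 (77.0–91.0%) in CD4 T cells, 1.69% in B cells and 0.369% in macrophages. It was 87.5% (67.6–97.3%) in the 24 cells failing only the NK gene limit. In the 226 T cells with no UMI of either coreceptor the share was 87.6% (82.6–91.6%). The intervals of these T cell groups overlap that of the members. After each cell was thinned to 1500 UMIs, which left out 3 members and 2 CD4 T cells, it was 84.1% (76.0–90.3%) in members, 73.9% (64.7–81.8%) in CD4 T cells and 0.538% in B cells.

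Single naive genes departed in both directions. *Actn1*, an actin crosslinker, was higher in all 6 libraries, at 192 CPM (150–243) against 100 CPM (70.4–139), with a log2 ratio of 0.94 (0.34–1.56). *Il7r*, the receptor of the survival cytokine IL-7, was lower in 5 of 6 libraries, at 243 CPM (194–299) against 433 CPM (367–506), and was seen in 37.1% against 57.5% of cells. Its log2 ratio was -0.83, and -0.55 with no limit on NK genes. *Dapl1*, a marker of naive CD8 T cells, was at 97.6 CPM (68.0–136) against 58.6 CPM (36.3–89.6), with a ratio of 0.74 whose interval (-0.09 to 1.59) includes 0. *Ccr7* was at 268 CPM in both.

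**Figure D4:**
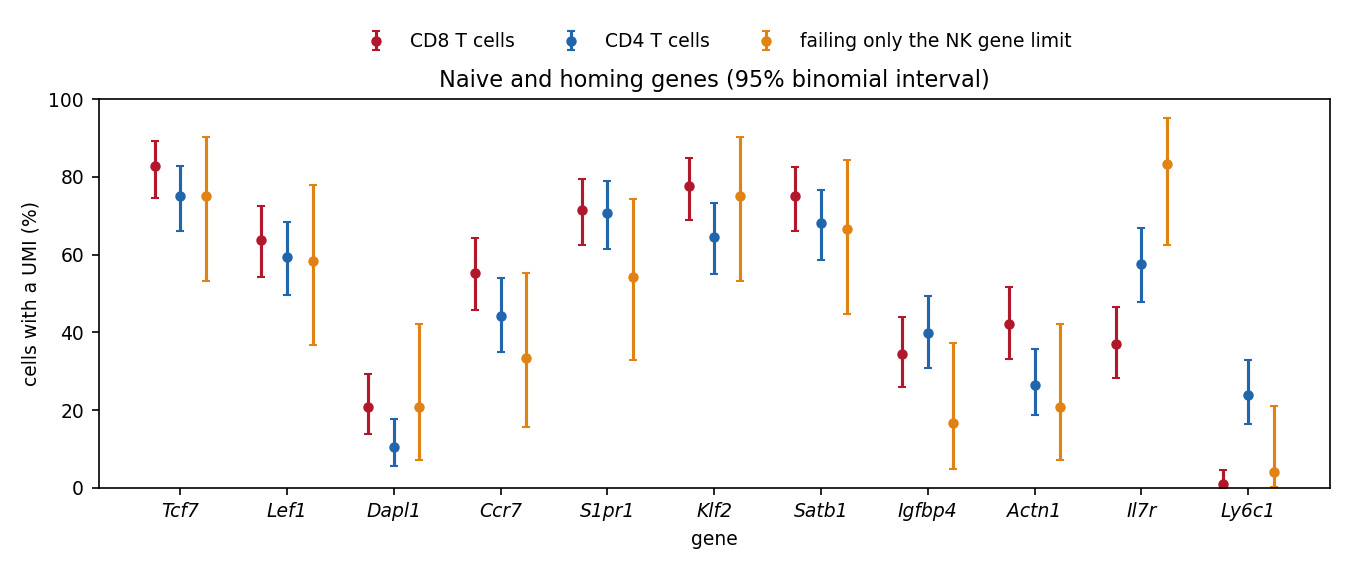
Percentage of cells with at least 1 UMI of 11 naive and homing genes in CD8 T cells (red, 116 cells), CD4 T cells (blue, 113 cells) and the 24 cells that failed only the NK gene limit (orange), with 95% exact binomial intervals. *Tcf7*, *Lef1* and *S1pr1* overlap in CD8 and CD4 T cells, while *Ly6c1* is seen in 0.862% of CD8 and 23.9% of CD4 T cells and *Il7r* in 37.1% and 57.5%.

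Of 21 CD8 lineage and cytotoxic genes only 4 reached the minimum. Of these *Ccl5* was past 2-fold higher and none was lower, beside 1.15% and 4.49% over all genes. *Ctsw*, a protease of cytotoxic cells, was at 1.00 just below 2-fold (123 against 61.4 CPM, 0.23–1.81) and just past it without library 3 (1.05). *Runx3*, the factor of the CD8 lineage, was at 0.69 (0.16–1.23) and higher in all 6 libraries. *Il2rb*, a chain of the IL-2 and IL-15 receptors, was at 0.32 (-0.21 to 0.85). The limit on NK genes removes cells rich in cytotoxic transcripts, so this list is not independent of the rule. Of effector transcripts members held 5 UMIs of *Gzmb* (granzyme B), 11 of *Gzmk*, 7 of *Prf1* (perforin), 2 of *Eomes* and 0 of *Ifng*. Within the rule, *Klrd1* was at 103 CPM in members and 11.2 CPM in CD4 T cells, and *Nkg7* at 100 and 11.2 CPM.

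Of 23 CD4 lineage, helper and regulatory genes 15 had a UMI in members and 3 reached the minimum, of which *Tnfrsf4* was past 2-fold lower, beside 4.49% of all genes. *Tnfrsf18*, which encodes the costimulatory receptor GITR, had a ratio of -0.60 (-1.19 to -0.02) and *Ctla4*, an inhibitory receptor, -0.89 (-1.95 to 0.10). They were past 2-fold lower without library 2 (-1.05) and without library 1 (-1.10), respectively. Below the minimum, *Icos*, a costimulatory receptor, had 6 against 29 UMIs, *Izumo1r*, the folate receptor 4 of regulatory and anergic CD4 T cells, 2 against 20, *Gata3*, a factor of helper T cells, 4 against 16 and the nuclear receptor *Rora* 3 against 23.

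Of 24 memory genes 13 were at the minimum, with 1 higher (*Ccl5*) and 4 lower, beside 1.15% and 4.49% over all genes, and the median log2 ratio was -0.36. The 4 lower genes were the integrin chain *Itgb1* (-2.03, -3.08 to -1.10), the transcriptional inhibitor *Id2* (-1.32, -1.88 to -0.79), *Cxcr6*, a chemokine receptor of tissue T cells (-1.19, -2.36 to -0.11), and *S100a6*, a calcium-binding protein (-1.17, -1.78 to -0.59). *S100a6* was lower in all 6 libraries, but 26 of its 36 UMIs in members were in library 3, and its ratio was -2.48 without library 3, -0.77 without library 2 and -0.48 with no limit on NK genes. The ratio of *Id2* was -0.88 without library 1, and that of *Cxcr6* -0.91 without library 3 and 0.13 after thinning. With no limit on NK genes *Id2* was at -0.97 and *Cxcr6* at -0.95, both under 2-fold, and *Itgb1* at -1.46. That limit removed 24 CD8 T cells but 2 CD4 T cells, so this list is not independent of the rule. B cells carried *S100a6* in 82.8% of cells and *Itgb1* in 49.1%, and without the cells with 5 or more *Cd74* UMIs the ratios were -1.80 for *S100a6* and -1.98 for *Itgb1*. With no *Cd79a* or *Cd79b* UMI allowed they were -1.39 and -1.92. The share of members with *Cd44*, the hyaluronan receptor raised on memory cells, was 9.48%, beside 10.6% in CD4 T cells.

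Of 30 immediate early and activation genes 29 had a UMI in members and 10 were at the minimum. Beside 1.15% higher and 4.49% lower over all genes, none was higher and 2 were lower: *Rgs2*, a regulator of G protein signalling (11 against 31 UMIs), and *Tnfaip3*, the NF-κB inhibitor A20 (-1.38, -2.35 to -0.49). The ratio of *Rgs2* was -2.90 without library 1 and -0.65 without library 3. That of *Tnfaip3* was -0.56 with libraries weighted equally and -0.63 with no limit on NK genes. Without library 3 *Ier5*, an immediate early gene, was past 2-fold higher (1.26). *Fos* had 1 UMI in members, *Egr1* 1, *Nr4a1* 6 in a single cell and *Cd69* 5. Of 12 checkpoint genes 3 were at the minimum and *Pdcd1*, which encodes PD-1, was lower in all 6 libraries, with 9 against 27 UMIs (-1.59, -2.86 to -0.46; -2.18 without library 3). *Lag3* and *Havcr2* had 0 UMIs in both populations. The cell cycle list had 2 of 14 genes at the minimum, neither past 2-fold, and *Mki67* had 1 UMI in members and *Top2a* 0.

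Of 16 genes of innate-like T cells 6 had a UMI in members and none reached the minimum. None of the 13 cytokine receptor genes, 9 interferon-stimulated genes or 11 MHC class I genes at the minimum was past 2-fold, with medians of 0.28, 0.20 and -0.12, beside 1.15% higher and 4.49% lower over all genes. *Il6st*, the shared receptor chain gp130, was at 0.96 and past 2-fold without library 4 (1.16). Among interferon-stimulated genes *Gbp2* was past it without library 3 (1.42), *Ifi27l2a* without library 2 (-1.13) or 4 (-1.10), and *Ly6a* without library 1 (-1.09). *Ifi27l2a* was lower in all 6 libraries (-0.97, -1.38 to -0.58), and *Ly6a*, the antigen Sca-1, in 5 of 6 (-0.83, -1.11 to -0.56), while the immunity-related GTPase *Igtp* was at 0.88 (0.17–1.63). *Il27ra* and *Il21r*, receptors of the cytokines IL-27 and IL-21, were higher in all 6 libraries, at 0.78 and 0.48 (-0.13 to 1.11). Of 11 integrin and chemokine receptor genes at the minimum none was higher and 3 were lower, beside 1.15% and 4.49% over all genes: *Itgb1*, *Cxcr6* and *Gpr183*, an oxysterol receptor (-1.40, -2.41 to -0.48). Without library 1 the integrin chain *Itgal* was lower too (-1.05).

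The members were not uniform in *Ccl5*. Of 116 members 85 had no UMI of it, 5 had 1 or 2, and 26 had at least 3, with a median of 15.5 UMIs and a highest value of 47 among these 26. Libraries 1 to 6 held 3, 4, 11, 2, 4 and 2 of the 26 cells, so they were found in every library. Among CD4 T cells 6 had at least 3 UMIs. The split was made after these values had been seen, and the genes below are given as a description.

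Cells with and without *Ccl5* differed in some naive and memory genes and not in others. *Igfbp4*, a secreted binding protein found in naive T cells, was seen in 1 of 26 cells with *Ccl5* (3.85%, 0.10–19.6%) and in 45.9% (35.0–57.0%) of the 85 cells without. *Ccr7* was seen in 38.5% and 61.2%, with overlapping intervals. The intervals of *Tcf7* overlapped, at 76.9% (56.4–91.0%) and 84.7% (75.3–91.6%), as did those of *S1pr1*, the receptor for exit from lymph nodes, at 69.2% and 72.9%.

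In the other direction, *Il7r* was seen in 61.5% (40.6–79.8%) of cells with *Ccl5* and 28.2% (19.0–39.0%) of cells without. *Ly6c2* was seen in 30.8% and 2.35%, and *Itgb1* in 34.6% and 2.35%. With overlapping intervals, *Il2rb* was seen in 65.4% (44.3–82.8%) and 34.1% (24.2–45.2%), and *Cd44* in 23.1% and 5.88%. The memory genes *Cxcr6* (7.69% and 9.41%) and *Id2* (19.2% and 17.6%) had overlapping intervals as well. *Plac8*, which was higher in members than in CD4 T cells, was seen in 46.2% and 45.9%. *Cd7* was seen in 26.9% (11.6–47.8%) and 47.1% (36.1–58.2%), again with overlapping intervals. Median depth was 2637 and 3002 UMIs. Without library 3 the shares were 0 of 15 cells (0–21.8%) and 49.0% for *Igfbp4*, 46.7% and 62.7% for *Ccr7*, 73.3% and 23.5% for *Il7r*, and 13.3% and 5.88% for *S100a6*, in place of 26.9% and 3.53% over all libraries.

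**Figure D5:**
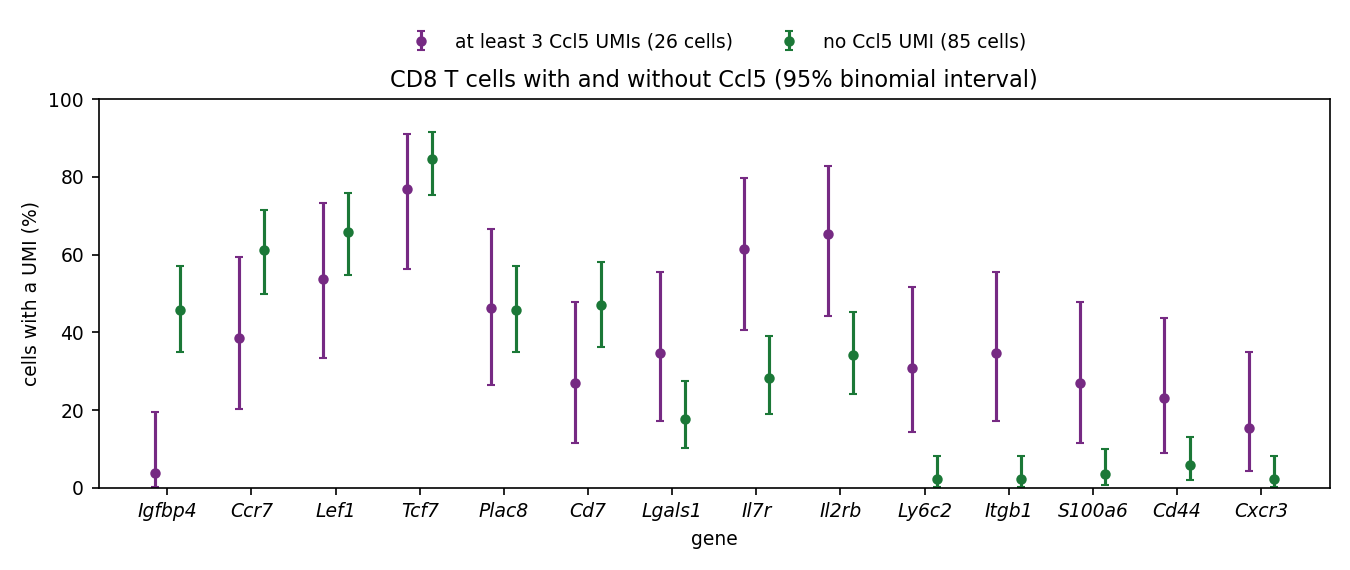
Percentage of CD8 T cells with at least 1 UMI of 14 genes, in the 26 cells with at least 3 *Ccl5* UMIs (purple) and the 85 cells with none (green), with 95% exact binomial intervals. *Igfbp4* is seen less often in cells with *Ccl5*, *Ly6c2* and *Itgb1* more often, and *Tcf7* and *Plac8* overlap; the groups were formed after the values had been seen.

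The 24 cells that failed only the NK gene limit carried more *Ccl5* than the members. They came from libraries 1 to 4 and had a median of 2795 UMIs. *Ccl5* was at 7646 CPM (7053–8276) in them, a log2 ratio to the members of 2.44 (2.27–2.62). Only 18 of these 24 cells had at least 3 *Ccl5* UMIs, so these intervals are again too narrow. *S100a6* (2.45, 1.78–3.13), *Lgals1*, which encodes galectin-1 (1.94, 1.27–2.61), *Ahnak* (1.84, 1.07–2.60) and *Il7r* (1.21, 0.66–1.75) were higher than in members, while *Igfbp4* (-1.38, -2.42 to -0.49) and *Actn1* (-1.36, -2.86 to -0.17) were lower. *Ccr2*, a receptor for inflammatory chemokines, had 10 UMIs, at 125 CPM against 11.2 CPM in members. *Tcf7* (-0.31, -0.80 to 0.15) and *Cd8b1* (-0.15, -0.66 to 0.32) had intervals that include 0. These genes were chosen for naming after their values were seen, and cells were put in this group by cytotoxic genes, so genes that go with them had to differ. The 7 *Mki67* UMIs of the group were in 1 cell.

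The β chain V segments of the TCR were spread over many segments. Members held 171 UMIs of 20 *Trbv* segments in 81 cells (69.8%, 60.6–78.0%), and CD4 T cells 199 UMIs of 19 segments in 78 cells (69.0%). B cells had a *Trbv* UMI in 0.331% of cells. Only 4 members had UMIs of more than 1 segment, as against 13 CD4 T cells. UMIs of 1 cell mostly come from 1 receptor, so the intervals on UMI shares are too narrow and cell numbers are given beside them.

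*Trbv13-2* (chr6:41121396-41121832) was the most used in members, with 24 of 171 UMIs (14.0%, 9.20–20.2%) in 16 cells of libraries 1 to 4, beside 32 of 199 UMIs (16.1%, 11.3–21.9%) in 16 CD4 T cells. *Trbv13-1*, *Trbv13-2* and *Trbv13-3* together made 29.8% of the UMIs of members (28 cells) and 23.6% of those of CD4 T cells (23 cells). The beginnings of 2 of them are shown because related segments can share reads, with capitals where *Trbv13-3* differs from *Trbv13-2*, from the same source as above.
Trbv13-2: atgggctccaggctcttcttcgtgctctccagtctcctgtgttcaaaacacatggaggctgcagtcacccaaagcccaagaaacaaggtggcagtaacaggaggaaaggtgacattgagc
Trbv13-3: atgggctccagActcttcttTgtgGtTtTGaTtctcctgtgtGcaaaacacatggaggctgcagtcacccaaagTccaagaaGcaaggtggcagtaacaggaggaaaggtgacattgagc
They differ at 32 of 340 positions (90.6% identity), and their longest shared run is 50 bases. *Trbv13-1* shares 87.1% with *Trbv13-2*.

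*Trbv15* (chr6:41141188-41141658) had 17 UMIs in members and 0 in CD4 T cells, but these came from 5 cells, and 16 of the 17 UMIs were in 4 cells of library 3. *Trbv19* had 16 UMIs in 6 members and 36 in 14 CD4 T cells, and *Trbv29* 6 UMIs in 5 members and 25 in 7 CD4 T cells. Segment use was not tested over cells. For the α chain, 29 *Trav* segments had 68 UMIs in 42 members. Among *Trav* segments with at least 10 UMIs over both populations, *Trav13-1* (7 UMIs in 3 cells) and *Trav5-4* (6 in 4 cells) had the most in members.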

How the data were processed

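The deposited table holds raw UMI counts per mouse gene and cell for 6 libraries (10x Genomics 5′ kit). Per the study's methods the authors aligned reads to hg38 and mm10 with Cell Ranger, and the submitters' processing notes name Cell Ranger 2.2, Seurat 3.0 and the build GRCm38; the versions in the methods differ from these. The annotation is not given in the sources used here. Free RNA was not removed.

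UMIs were summed over the cells of each population and divided by their total to give CPM (scipy 1.17.1), a count of 0 being set to a floor of 3. Cells were thinned to 1500 UMIs for shares, and doublets were called with Scrublet in scanpy 1.11.5 but kept. The ratio step was tested on pooled counts simulated with counting error only. That test holds no variation among cells or libraries, so it cannot show that the intervals cover it. No p-value is given, since the library numbers are tied to no sample, so that the table counts as 1 pooled sample, and cells are not replicates. Named genes are members of fixed lists (up to 6 per list, largest ratios first) and, in each direction, the 12 largest ratios past 2-fold on the same side in at least 5 of 6 libraries; other genes named were chosen after their values were seen. Limits on cells, library sets, totals, CPM minima and folds were varied. Members, lists and markers were chosen with earlier results of these data known. Gene positions and sequences are from GENCODE vM21. Some genes are not reported here.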

Additional observations from a re-analysis of the deposited data

Results flagged for a closer look

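Some T cells with no UMI of either coreceptor, a group left out of the comparison of CD8 and CD4 T cells, held transcripts of γδ TCR constant genes. UMIs of the γδ TCR constant genes (*Trdc*, *Tcrg-C1*, *Tcrg-C2* and *Tcrg-C4*) were seen in 18 of the 226 cells of this group (7.96%, 4.79–12.3%), with 84 UMIs in all. In CD8 T cells they were seen in 2 of 116 cells (1.72%, 0.21–6.09%), with 3 UMIs, and in CD4 T cells in 0 of 113 (0–3.21%; 3 cells would be 2.65%). This was singled out as a share, in cells outside the comparison of CD8 and CD4 T cells, that lay above the share in both. Its interval overlaps that of CD8 T cells, and the difference was not tested.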

How the results depend on the processing

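The number of CD8 T cells (116) was 72 with at least 1000 genes per cell, 74 with at least 2 UMIs of the CD8 chains and 59 with no NK gene UMI, and stayed between 98 and 140 under the other limits. The share with naive marker UMIs (94.0%) was 98.6% with at least 1000 genes and 84.1% after thinning, and 92.6–97.1% with each library left out. Cells failing only the NK limit (24) were 15–24 with each library left out, the lowest without library 2. *Trbv13-2* took 10.7–17.2% of *Trbv* UMIs with each library left out. Genes past 2-fold (123 of 2183) numbered 185 with at least 1000 genes, 238 after thinning, 331 with libraries weighted equally, 376 of 3927 with the other total, 669 of 5002 at 20 CPM, 40 of 983 at 100 CPM, 467 at 1.5-fold and 27 at 3-fold. Leaving out a library gave 128–231, the highest without library 3, which holds 46 members (65 higher, 166 lower). With no limit on NK genes there were 94 of 2204 (28 higher, 66 lower). Other minima and folds change this number by construction; for the other settings the cause was not tested. Of 1441 ratios of 76 genes under the alternatives, 1402 lay within the main interval. Most alternatives reuse the same cells, and leaving out called doublets removed no member, so this count cannot show that the ratios would hold in other cells. A ratio within the interval can also be under 2-fold, as that of *Ubash3a* was without library 1 (-0.83). The direction turned for *H2-Aa* (4.65) and *H2-Eb1* (2.06) with no *Cd79a* or *Cd79b* UMI allowed, for *H2-Aa* (1.40) without cells with at least 5 *Cd74* UMIs, an alternative chosen after seeing the data, and for *Cxcr6* (0.13) after thinning. Ratios of genes near the minimum rest on few UMIs per population, and no interval holds the variation among animals, since their cells were pooled.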
